A study of Mus musculus with 9 samples.

Results

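Axon guidance ligands and receptors are the proteins with which growing axons read their surroundings. The genes described here are the rows of a mouse expression table whose Ensembl identifiers map to semaphorins of classes 3 to 7, plexins, neuropilins, Eph receptors, ephrins, Slits, Robos, netrins, netrin-G proteins, Unc5 receptors or Dcc. They were 70 of 45904 rows: 20 semaphorins, 11 plexins and neuropilins, 14 Eph receptors, 8 ephrins, 7 Slits and Robos, and 10 netrins and netrin receptors. Ntn3 matched the same name pattern and is not analysed here. RNA came from dorsal root ganglia of the sciatic nerve of C57BL/6 mice, in 3 groups of 3 libraries, and each library pooled the ganglia of 2 mice. The young sham group was 8 to 10 weeks old and had sham surgery. The aged sham group was 20 to 22 months old and had sham surgery, and the aged injury group was of the same age with an injured sciatic nerve. All ganglia were taken 24 h after surgery. The labels do not give the sex of the mice or the form of the nerve injury, and whether these genes respond in the same way in young mice was not tested, since no young injured group was used here.

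Semaphorins signal through plexins, the secreted class 3 members with neuropilins as co-receptors, and most of these signals make a growth cone collapse or turn away. Ephrins are tethered to the cell surface and bind Eph receptor tyrosine kinases, and signalling can run in both directions across the contact. Slits repel through Robo receptors, and netrins attract through Dcc or repel through Unc5 receptors. In the ganglion these families shape sensory axon paths during development, and in the adult they are also found in glia, vessels and immune cells. In a whole ganglion, fewer cells of a type and less RNA per cell cannot be told apart.

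Levels are FPKM, fragments per kilobase of gene and per fixed number of fragments, which allows genes to be ordered within a library. Differences are log2 changes of FPKM + 0.1 from limma, with p-values adjusted (Benjamini-Hochberg) over the 17601 rows whose mean reached 0.2 FPKM, and a gene was called when its adjusted p was below 0.05. Relative depth ran from 0.846 in aged sham replicate 2 to 1.225 in aged injury replicate 1, against 1 in young sham replicate 1. The tissue label matched its markers: Prph, an intermediate filament gene of sensory neurons, was at 757 to 999 FPKM and Fabp7, a gene of satellite glia, at 103 to 292 FPKM. The injury label matched too, with Atf3, a transcription factor induced in injured neurons, at 278, 192 and 271 FPKM in the aged injury libraries. Sex differed between the groups. The summed level of 4 Y-linked genes was at 93 to 105.7% of the young mean in young sham, at 69.7% in aged sham replicate 1 and at 0% in the other aged libraries. Age and sex therefore cannot be told apart below. Aged sham replicate 1 also had the highest Atf3 level of the sham libraries (95.6 FPKM). Fits without it are given for the guidance genes called with age and after injury. Counts of groups that did not overlap, counts of direction by family and the values of genes not called include it. Over all rows, 445 were called higher and 262 lower with age, and 432 higher and 291 lower after injury. With the libraries set to equal medians these splits were 281 and 536, and 287 and 294. With age the split was 388 and 509 with quantile normalization and 524 and 528 with voom on recovered reads. In aged injury against young sham, 1444 were higher and 860 lower, or 1029 and 1670 with equal medians.

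Of the 70 genes, 66 passed the filter on low levels and 4 did not. The tested genes had a median level of 2.88 FPKM, against 4.73 FPKM over all tested rows. Semaphorins held 39.2 to 41.8% of the summed FPKM of the 70 genes in a library, and plexins with neuropilins 28.5 to 32.5%. The remaining families each held at most 10.5%. The sum over the 70 genes was 409 ± 13.1 FPKM in young sham, 453 ± 23.3 in aged sham and 443 ± 5.12 in aged injury (SD, n = 3 each).

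**Figure D1:**
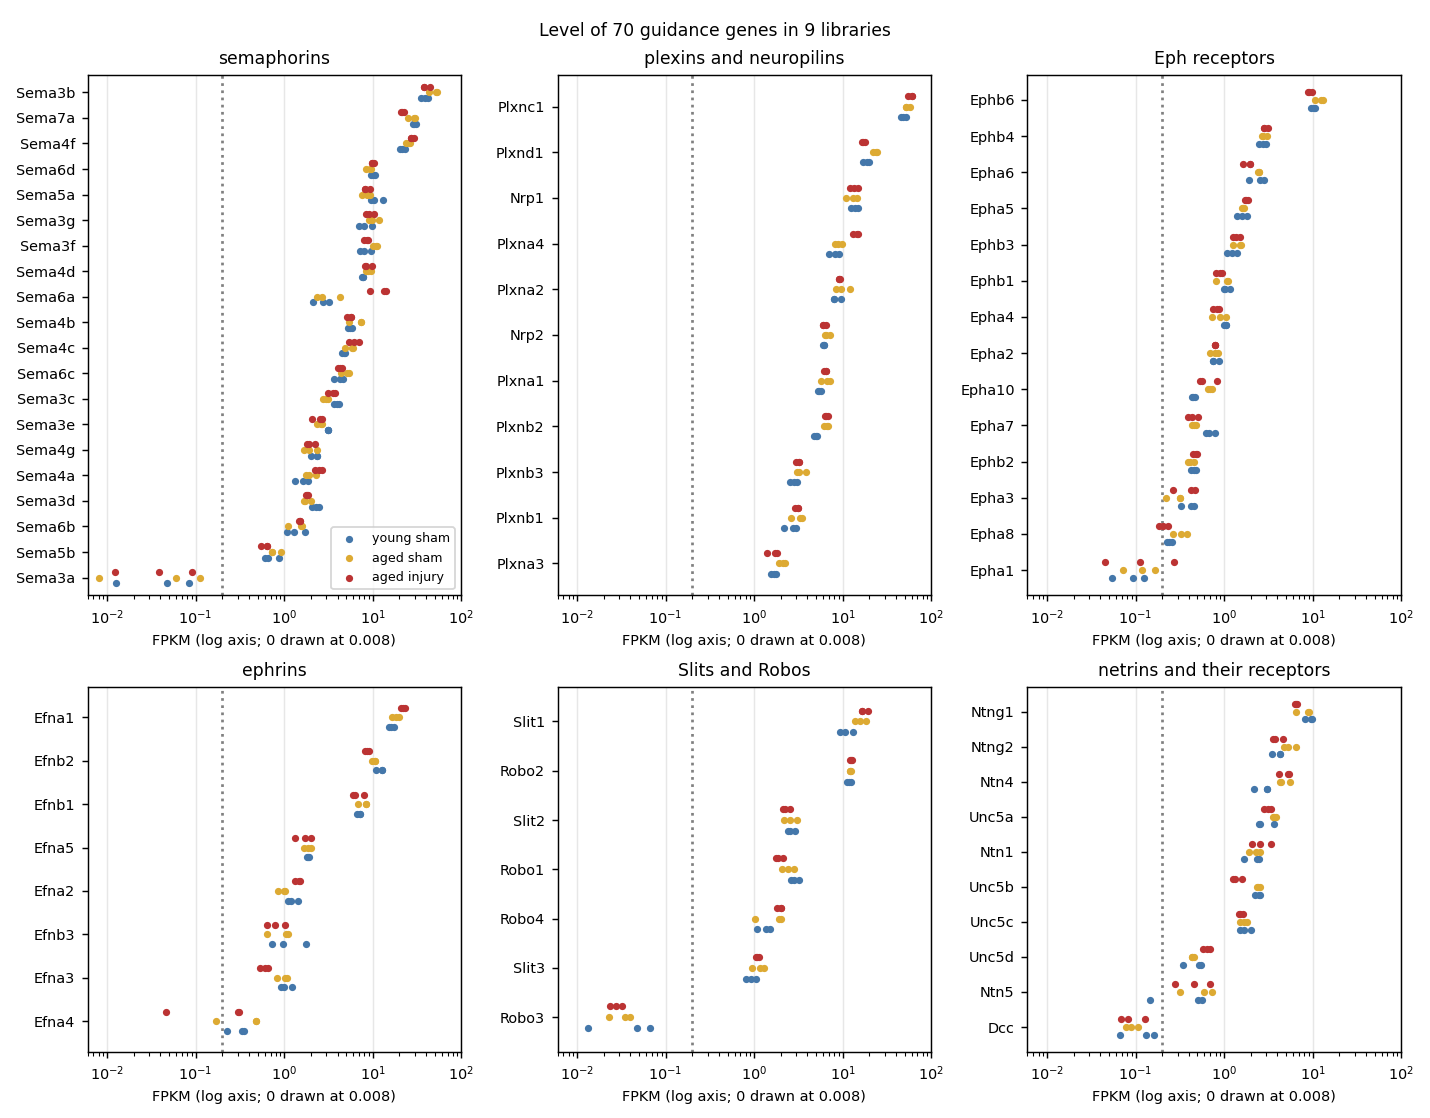
Level of each of the 70 guidance genes, by family. The x axis is FPKM on a log scale, each point is 1 of 9 libraries, with a colour for each group, and the dotted line marks the filter at a mean of 0.2 FPKM. Plxnc1, Sema3b, Sema7a and Sema4f lie highest, Sema3a, Robo3 and Dcc lie left of the line, Epha1 has 1 point to its right, and Sema6a is the gene whose aged injury points stand farthest to the right of its other points.

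The most abundant guidance gene was the receptor Plxnc1, which encodes plexin C1, the receptor of the semaphorin Sema7A. Its levels were 45.1, 51.9 and 48.3 FPKM in young sham, 51.7, 57.4 and 52.6 FPKM in aged sham and 60.4, 60.2 and 54 FPKM in aged injury. Sema7a itself, a semaphorin held in the membrane by a lipid anchor, came after Sema3b at 21.1 to 30.6 FPKM. Sema3b, a secreted semaphorin, was next to Plxnc1, with 42.2, 39.2 and 34.9 FPKM in young sham, 43.6, 53.2 and 51.7 FPKM in aged sham and 38.1, 38.2 and 44.3 FPKM in aged injury. The aged sham libraries of Sema3b lay above the young ones by a narrow margin, and its log2 change of 0.35 did not pass the test (limma adjusted p = 0.0754). Sema4f, a transmembrane semaphorin, followed at 20.5 to 29.5 FPKM. Averaged over the libraries, only these 4 of the 70 genes reached 20 FPKM.

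Receptors for semaphorins were all present: every one of the 11 plexin and neuropilin genes had a mean above 1 FPKM, and 8 reached 5 FPKM. Nrp1, a neuropilin that binds class 3 semaphorins, was at 10.9 to 15 FPKM over the 9 libraries, and Nrp2 at 5.96 to 7.18 FPKM. Among class 3 ligands, Sema3b, Sema3g and Sema3f were the most abundant, while Sema3a, a collapsing factor for sensory axons, was at 0 to 0.111 FPKM. In the smallest whole numbers that give its values, Sema3a had 4, 1 and 6 reads in young sham, 0, 8 and 5 in aged sham and 4, 8 and 1 in aged injury, and the 0 allows up to 0.036 FPKM (3 reads, counting error only). No difference in Sema3a was detectable at this depth.

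Eph receptors were low next to their ligands. Of the 14 Eph genes, 5 averaged 1 FPKM or more. Ephb6, whose kinase domain is inactive, stood far above the rest, with 10.4, 10.5 and 9.52 FPKM in young sham, 10.5, 13 and 12.3 FPKM in aged sham and 8.96, 9.05 and 9.96 FPKM in aged injury. The aged injury libraries were below every aged sham library, with a log2 change of -0.35 that missed the threshold (limma adjusted p = 0.0657). The next was Ephb4, a receptor known from veins, at 2.48 to 3.13 FPKM. Epha1 did not pass the filter. Among the ephrins, the lipid-anchored Efna1 led at 15.4 to 22.9 FPKM, followed by the transmembrane Efnb2 at 8.27 to 12.6 FPKM and Efnb1 at 5.96 to 8.39 FPKM, and the other 5 had means below 2 FPKM.

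Slit1, a secreted repellent, and Robo2, its receptor, were at like levels. Robo2 was at 12.3, 11.9 and 11.1 FPKM in young sham, 12, 12.5 and 12.1 FPKM in aged sham and 12.9, 12.2 and 12.3 FPKM in aged injury. Its log2 changes were 0.05 with age and 0.03 after injury (SE 0.0595 each), both within the spread of the libraries. Robo1 was at 1.78 to 3.2 FPKM, and Robo4, the Robo of endothelial cells, at 1.02 to 2.02 FPKM. Robo3 was at most 0.0673 FPKM and did not pass the filter. Of the netrin group, the netrin-G genes Ntng1 and Ntng2, whose products are anchored by lipid and bind partners on other neurons, were the highest at 6.29 to 9.87 and 3.52 to 6.56 FPKM. Ntng2 shares 14% of its exon bases with a second gene on the same strand, so some of its reads may belong there. Unc5a, Unc5b and Unc5c, the repulsive netrin receptors, were at 1.26 to 3.86 FPKM. Dcc, the attractive netrin receptor, was at 0.0666 to 0.16 FPKM with 6 to 16 reads per library and did not pass the filter.

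How guidance genes respond to nerve injury was asked by setting aged injury against aged sham. Sema6a and its receptor gene Plxna4 rose, and Unc5b, Plxnd1 and Sema7a fell. These 5 were 7.58% of the 66 genes tested, and 4.11% of all rows were called (2.45% higher and 1.65% lower). The other 61 did not pass the test, and 60 of the 66 log2 changes were smaller than 0.5. Sema6a had the single change above 1. In 22 genes the 3 injury libraries did not overlap the 3 sham libraries, 9 higher and 13 lower. That is 33.3% of the genes, next to 25.4% of all rows. The median log2 change of the tested genes was -0.07, against -0.01 over all rows.

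**Figure D2:**
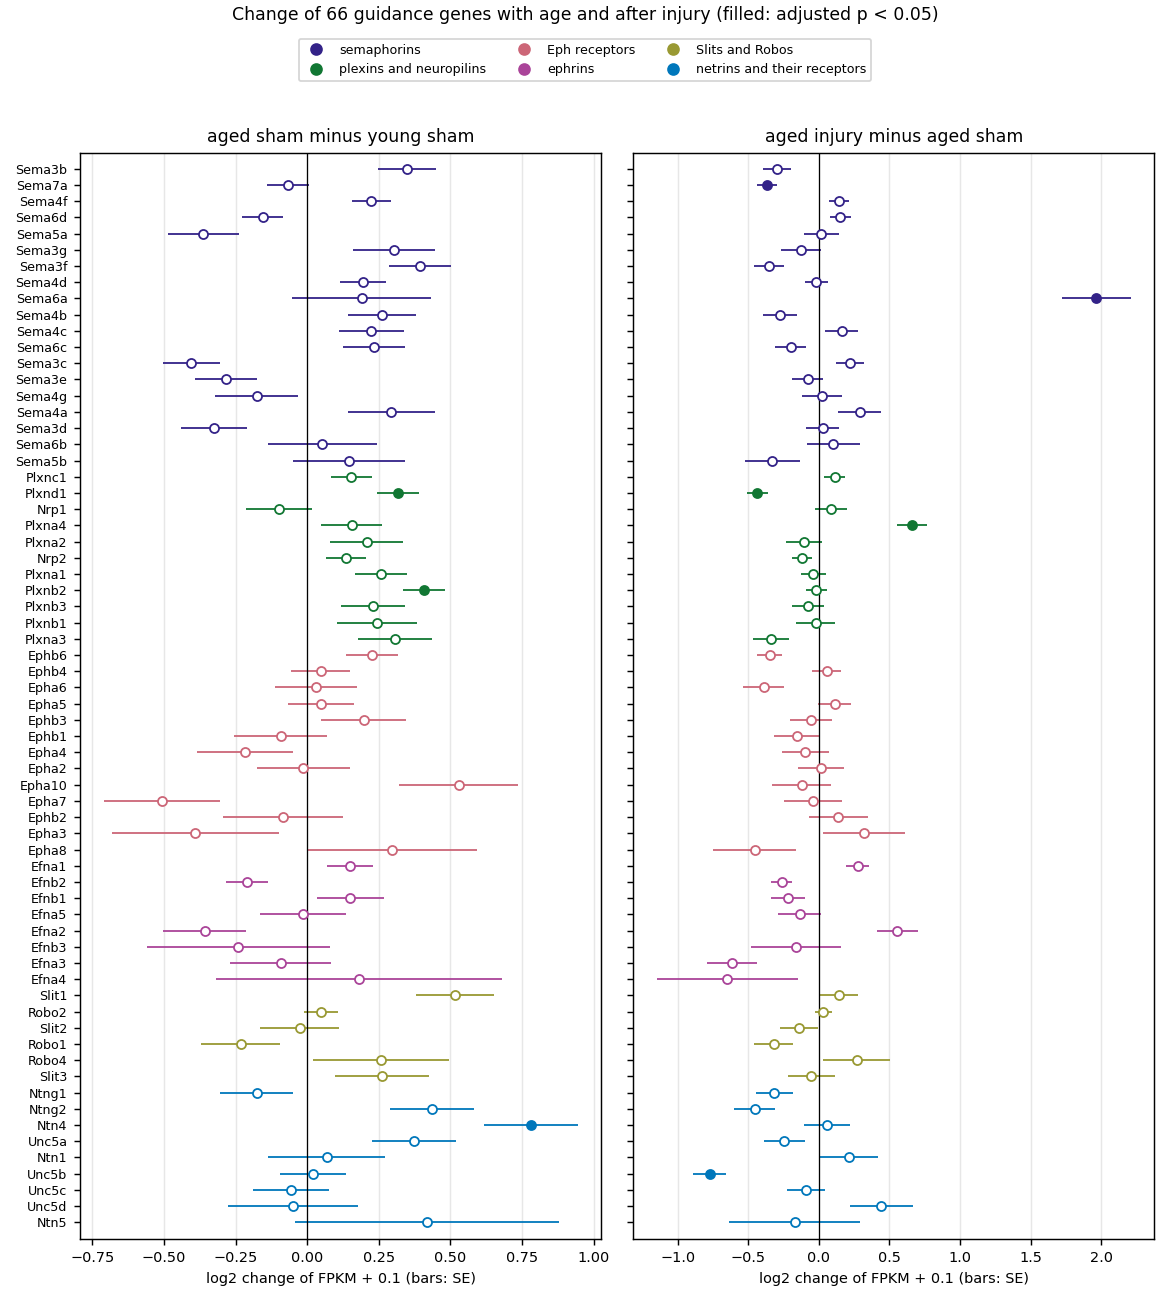
Log2 change of FPKM + 0.1 of the 66 tested guidance genes with age (left) and after injury (right), coloured by family, with bars of 1 SE. Filled points passed the test. With age Plxnb2, Plxnd1 and Ntn4 are filled, all to the right of 0, and after injury Sema6a lies far to the right at 1.97 while Unc5b is the filled point farthest to the left. Both panels use the aged sham libraries, so their values are not independent.

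Sema6a (chromosome 18, 47235598 to 47368870) encodes a transmembrane semaphorin that acts on plexins A2 and A4. Its levels were 2.71, 3.21 and 2.09 FPKM in young sham, 4.3, 2.7 and 2.36 FPKM in aged sham and 13.9, 9.41 and 13.5 FPKM in aged injury. Every injury library was more than 2 times above the highest sham library, and aged sham replicate 1 was the highest of the 6 sham libraries. The rise was 3.91-fold (log2 change 1.97, SE 0.243, limma adjusted p = 0.00529). Without aged sham replicate 1 the log2 change was 2.22. The call held in each of the 9 fits that left out 1 library and in the 10 other settings tried. The other class 6 genes did not pass: Sema6b was at 1.08 to 1.7 FPKM, Sema6c at 3.68 to 5.38 FPKM and Sema6d at 8.3 to 10.6 FPKM over the 9 libraries.

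Plxna4 (chromosome 6, 32144268 to 32588192) encodes plexin A4, a receptor of Sema6A and, with neuropilins, of class 3 semaphorins. It was at 8.2, 9.01 and 6.96 FPKM in young sham, 8.92, 8.15 and 9.82 FPKM in aged sham and 14.4, 13.2 and 14.9 FPKM in aged injury. The injury libraries lay above all sham libraries, by 1.58-fold over aged sham (log2 SE 0.106, adjusted p = 0.0134). Plxna2, the other receptor of Sema6A, was at 8.3 to 12.1 FPKM in aged sham and 9.08 to 9.29 FPKM in aged injury and was not called. The remaining class A genes, Plxna1 and Plxna3, were not called either. The receptor rise was thus seen in 1 of 4 class A plexins, and the difference between these 4 was not tested.

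Unc5b (chromosome 10, 60762593 to 60831581) encodes a netrin receptor that mediates repulsion in neurons and is also made by endothelial cells. It was at 2.46, 2.21 and 2.53 FPKM in young sham, 2.43, 2.34 and 2.53 FPKM in aged sham and 1.32, 1.58 and 1.26 FPKM in aged injury. All 6 sham libraries fell in a narrow band and the 3 injury libraries were well below it. The fall was 1.71-fold (log2 SE 0.115, adjusted p = 0.0101). Of its relatives, Unc5a was at 3.59 to 3.86 FPKM in aged sham and 2.85 to 3.42 FPKM in aged injury, Unc5c was at 1.5 to 1.8 and 1.48 to 1.64 FPKM, and Unc5d at 0.432 to 0.461 and 0.572 to 0.701 FPKM. None of the 3 was called. The ligands Ntn1 and Ntn4 were not called after injury.

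Plxnd1 (chromosome 6, 115954811 to 115995005) encodes plexin D1, a receptor of Sema3E best known from vessels. It was at 19.1, 19.9 and 17 FPKM in young sham, 22, 24.2 and 23.6 FPKM in aged sham and 17, 18 and 16.5 FPKM in aged injury. The injury libraries were below all aged sham libraries and overlapped the young ones. The fall was 1.35-fold (log2 SE 0.0729, adjusted p = 0.015). Sema3e, its ligand, was at 2.36 to 2.68 FPKM in aged sham and 2.07 to 2.65 FPKM in aged injury and was not called. Among 9 endothelial markers, the tight junction gene Cldn5 was the only one called, and it fell from 15.1 ± 1.74 to 10.3 ± 0.239 FPKM (SD, n = 3 each). The summed level of the 9 markers was 45.99 to 50.43 FPKM in aged sham and 44.64 to 50.88 FPKM in aged injury, so the 2 groups overlapped. Their median log2 change was above 0, at 0.14, against -0.01 over all rows. Cldn5 thus ran against most of its list, and the part of these cells in the fall of Plxnd1 was not tested.

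Sema7a (chromosome 9, 57940112 to 57962865) was at 29.2, 30.6 and 28.2 FPKM in young sham, 25.2, 28.9 and 30 FPKM in aged sham and 22.6, 21.1 and 21.2 FPKM in aged injury. Its injury libraries were below every sham library, and aged sham replicate 1 was the lowest of the sham libraries. The fall was 1.29-fold (log2 SE 0.073, adjusted p = 0.0277), and with the replicate number as a block the adjusted p was 0.0854. Plxnc1, its receptor, was not called after injury (log2 change 0.11).

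**Figure D3:**
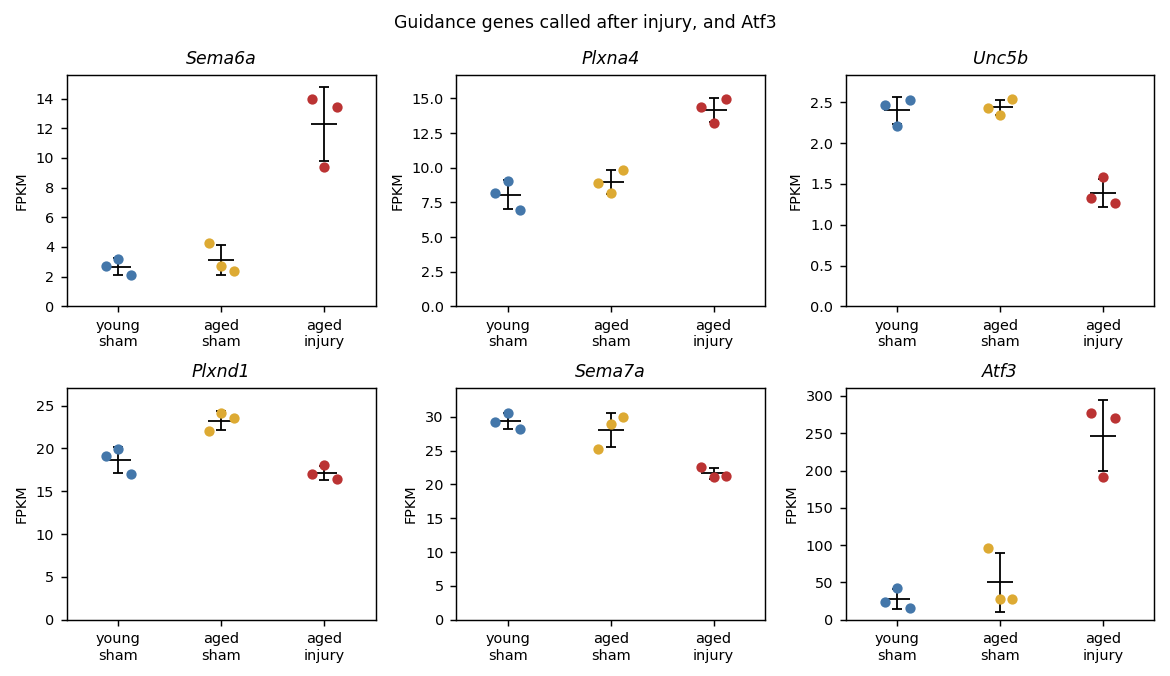
FPKM per library of the 5 guidance genes called after injury and of the injury marker Atf3, in young sham, aged sham and aged injury. Points are libraries, bars give the mean ± SD of 3, and each y axis starts at 0. Sema6a and Atf3 are low in sham and high after injury, with aged sham replicate 1 highest of the aged sham points in both. Unc5b sits between 1.26 and 1.58 FPKM in aged injury and above 2.2 FPKM in both sham groups.

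These calls differed in how far they rested on single libraries. Without aged sham replicate 1, 8 guidance genes were called, the same 5 in the same direction and Ephb6, Ntng1 and Sema4b lower. Without aged injury replicate 1 or aged injury replicate 3, Sema6a alone was called. Without aged sham replicate 2, Sema6a and Unc5b were called, and without aged sham replicate 3, Sema6a and Plxna4. Over all settings the highest adjusted p was 0.0533 for Unc5b, 0.068 for Plxna4, 0.0731 for Plxnd1 and 0.105 for Sema7a, and no direction changed.

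Several ephrins leaned in opposite directions after injury without passing the test. Efna2, a lipid-anchored ephrin, had aged sham levels of 1.02, 0.841 and 0.984 FPKM and injury levels of 1.51, 1.34 and 1.47 FPKM (log2 change 0.55, limma adjusted p = 0.0712). In young sham it was at 1.1, 1.21 and 1.43 FPKM, which overlapped the aged injury libraries and lay above the aged sham ones. Efna3 went from 1.02, 1.07 and 0.83 FPKM to 0.534, 0.599 and 0.659 FPKM (log2 change -0.62, limma adjusted p = 0.0914). Efnb2, which also marks arteries, was at 9.9, 10.6 and 10.7 FPKM and then 8.98, 8.27 and 8.64 FPKM. Efna1 was at 19.8, 16.4 and 18.2 FPKM and then 22.9, 21.8 and 21.1 FPKM (log2 change 0.27, limma adjusted p = 0.0953). In these 4 of the 8 ephrins (50%) the groups did not overlap, 2 higher and 2 lower, next to 25.4% of all rows. Efna3 shares 14.1% of its exon bases with a gene on the opposite strand, and whether strand was used in counting is not given.

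Promoters are shown for the genes called after injury that have an entry in the promoter table. The RefSeq promoter table (GRCm38.p6) matched 60 of the 70 genes and 3 of the 5 called after injury, Plxnd1, Sema7a and Unc5b, all of which fell. Each line gives the 250 bases before the start of the gene, 5′ to 3′ on the strand of the gene, with matches to the GC box (GGGCGG on either strand, the letters bound by Sp1) in capitals. The windows are chr6:115995006-115995255 on the minus strand for Plxnd1, chr9:57939862-57940111 on the plus strand for Sema7a and chr10:60831582-60831831 on the minus strand for Unc5b.
Plxnd1: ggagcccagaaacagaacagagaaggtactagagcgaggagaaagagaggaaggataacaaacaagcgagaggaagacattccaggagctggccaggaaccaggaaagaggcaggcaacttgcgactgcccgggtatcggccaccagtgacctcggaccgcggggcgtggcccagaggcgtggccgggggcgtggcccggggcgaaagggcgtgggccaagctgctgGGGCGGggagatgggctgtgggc
Sema7a: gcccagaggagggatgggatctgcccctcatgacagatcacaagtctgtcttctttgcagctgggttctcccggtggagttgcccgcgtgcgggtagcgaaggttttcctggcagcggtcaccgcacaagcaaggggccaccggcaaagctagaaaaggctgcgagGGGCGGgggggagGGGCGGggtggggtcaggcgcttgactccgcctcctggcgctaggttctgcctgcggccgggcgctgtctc
Unc5b: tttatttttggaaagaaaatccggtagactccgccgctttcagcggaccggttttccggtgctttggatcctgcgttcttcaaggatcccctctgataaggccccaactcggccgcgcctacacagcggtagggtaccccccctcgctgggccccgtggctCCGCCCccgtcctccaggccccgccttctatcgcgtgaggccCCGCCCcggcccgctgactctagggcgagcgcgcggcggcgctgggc

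Each of the 3 windows was rich in G and C (64.8% in Plxnd1, 66.4% in Sema7a and 66.8% in Unc5b, against a median of 64.2% over the promoters of guidance genes and 52.4% over 32851 promoters). Plxnd1 held 1 GC box, Sema7a 2 and Unc5b 2. A GC box was found in 69.7% of the 76 promoters of guidance genes and in 32.7% of all promoters. The AP-1 motif TGANTCA, read by Jun and Fos proteins, was found in 3.95% of the guidance promoters and 6.75% of all promoters, and the cyclic AMP response motif TGACGTCA in 1.32% and 1.55%. Neither motif, nor the letters CCAAT, nor the TATA box TATAAA, nor the E-box CACGTG, was present in the 3 windows. All motifs were searched on both strands, and a match is a description of the letters only.

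What differs with age, in the absence of nerve injury, was asked by setting aged sham against young sham. Plxnb2, Ntn4 and Plxnd1 were higher in aged ganglia, and no guidance gene was called lower. The absence of lower calls depended on the setting. Sema3c was called lower with equal medians, with quantile normalization, with a filter at 1 FPKM and, together with Epha7, with voom on recovered reads. The 3 genes called higher were 4.55% of the 66 genes tested, next to 4.02% of all rows (2.53% higher and 1.49% lower), so the share was near the background. The largest change was below 0.8 on the log2 scale. In 23 genes the groups did not overlap, 14 higher and 9 lower, which is 34.8% of the genes and 29.2% of all rows. The median log2 change was 0.15, against 0.05 over all rows. Plexins and neuropilins, singled out after their values were seen, showed the most even pattern, with 10 of 11 log2 changes above 0. Nrp1 was the one below 0. This count held with equal medians, with quantile normalization and with voom on recovered reads, though just 2 of the 11 passed the test. The share of all rows above 0 was not counted. The family count was not repeated with the Y-linked level as a covariate, which took the median of the 66 genes below 0.

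Plxnb2 (chromosome 15, 89155549 to 89180788) encodes plexin B2, a receptor of class 4 semaphorins found in many cell types. It was at 4.94, 5.18 and 4.72 FPKM in young sham and 6.23, 6.72 and 6.84 FPKM in aged sham. The aged libraries were all higher, by 1.33-fold (log2 SE 0.0728, adjusted p = 0.0318). After injury it stayed within 6.23 to 6.86 FPKM. Its ligands Sema4c and Sema4d were at 4.49 to 4.88 and 7.56 to 7.86 FPKM in young sham and at 4.81 to 6.01 and 8.4 to 9.47 FPKM in aged sham, and neither was called.

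Ntn4 (chromosome 10, 93640681 to 93747207) encodes netrin 4, a laminin-related protein of basement membranes. It was at 3.08, 2.15 and 3.02 FPKM in young sham, 4.32, 5.58 and 4.4 FPKM in aged sham and 4.22, 5.27 and 5.4 FPKM in aged injury. All 6 aged libraries were above all 3 young ones. The rise in aged sham was 1.72-fold (log2 SE 0.164, adjusted p = 0.0409). Ntn1, the classical netrin, was at 1.68 to 2.46 FPKM in young sham and 1.9 to 2.57 FPKM in aged sham and was not called.

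Plxnd1, whose values are given above, was 1.25-fold higher in aged than in young sham (log2 SE 0.0729, adjusted p = 0.0471), and with equal medians it was not called. Of the 9 endothelial markers, Cldn5 alone was called with age, and it rose from 11.5 ± 0.711 to 15.1 ± 1.74 FPKM (SD, n = 3 each). The 9 summed to 40.44 to 47.02 FPKM in young sham and 45.99 to 50.43 FPKM in aged sham. Their median log2 change was 0.05, against 0.05 over all rows, and their part in the result was not tested. Sema3c, a secreted class 3 semaphorin, had the next smallest p. It was at 3.95, 3.64 and 4.15 FPKM in young sham and 3.09, 3 and 2.71 FPKM in aged sham, with no overlap, and a log2 change of -0.40 (limma adjusted p = 0.0535). The class 3 genes did not lean together: Sema3b, Sema3f and Sema3g had higher means in aged sham, and Sema3c, Sema3d and Sema3e had lower ones.

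**Figure D4:**
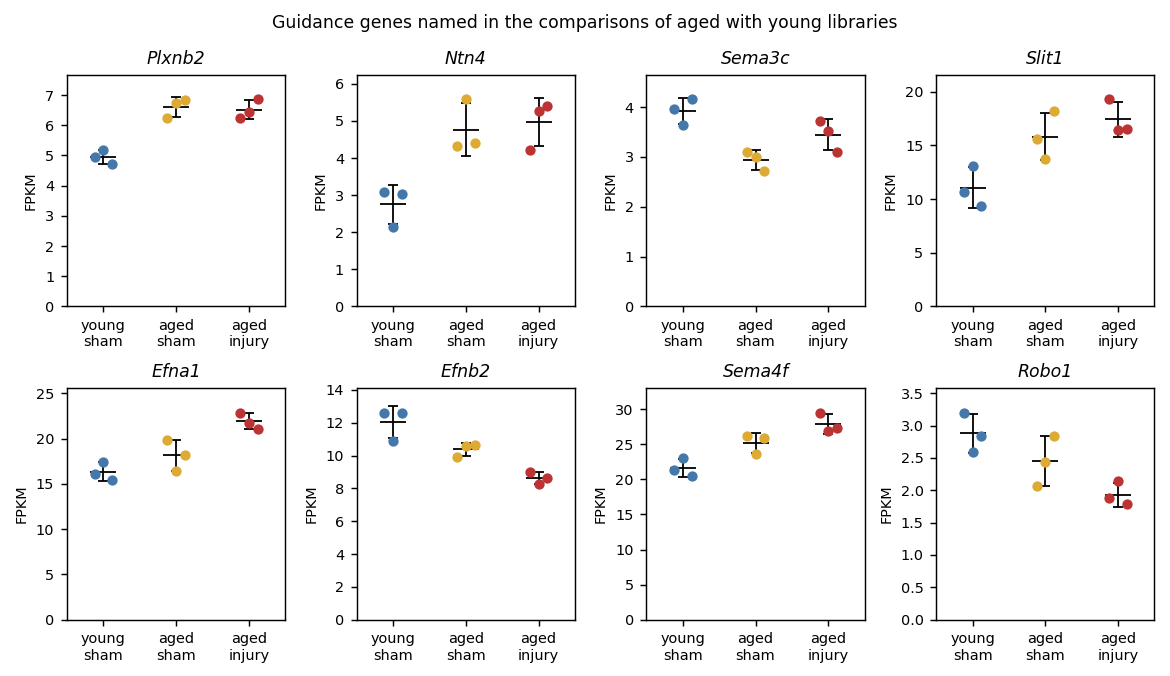
FPKM per library of 8 guidance genes in young sham, aged sham and aged injury, with the mean ± SD of 3 libraries. Plxnb2 and Ntn4 are higher in all 6 aged libraries, Sema3c is lowest in aged sham, Efna1, Sema4f and Slit1 are highest and Efnb2 and Robo1 lowest in aged injury by their means.

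The age calls were lost in many settings. None of the 3 was called when young sham replicate 1, young sham replicate 3, aged sham replicate 2, aged sham replicate 3, aged injury replicate 1 or aged injury replicate 3 was left out, when the 2 groups were fitted alone, with the replicate block or with the Y-linked level as a covariate. Without aged injury replicate 2, Plxnb2 was called alone. Without aged sham replicate 1, Plxnb2 and Sema4b were called higher. Without young sham replicate 2, 8 guidance genes were called, 6 higher and 2 lower. With 1 library left out the log2 change was 0.38 to 0.45 for Plxnb2, 0.62 to 0.87 for Ntn4 and 0.25 to 0.37 for Plxnd1, near the values from all libraries. With the Y-linked covariate it was 0.26, 0.65 and 0.16. The highest adjusted p over the settings was 0.501 for Plxnb2, 0.506 for Ntn4 and 0.671 for Plxnd1.

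Aged injury and young sham ganglia differ in age, injury and sex at once, and this comparison shares its libraries with the others. Of the 66 genes, 15 were called, 9 higher and 6 lower, which is 22.7%, next to 13.1% of all rows (8.2% higher and 4.89% lower). With equal medians, and with quantile normalization, 7 were higher and 9 lower. In 27 genes (40.9%) the groups did not overlap, next to 35.4% of all rows. Sema6a was 4.46-fold higher and Plxna4 1.76-fold higher than in young sham, and Unc5b was 1.68-fold lower. Sema7a was 1.35-fold lower, Plxnb2 1.31-fold higher and Ntn4 1.79-fold higher.

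Some genes passed the test in this comparison and in neither of the others. Slit1 was at 10.7, 13.1 and 9.38 FPKM in young sham, 15.6, 13.7 and 18.2 FPKM in aged sham and 19.3, 16.5 and 16.5 FPKM in aged injury. It was 1.58-fold higher in aged injury than in young sham (limma adjusted p = 0.0164), and its adjusted p for age alone was 0.0636. Efna1 was at 16.1, 17.5 and 15.4 FPKM, then 19.8, 16.4 and 18.2 FPKM, then 22.9, 21.8 and 21.1 FPKM, and was 1.34-fold higher (limma adjusted p = 0.0114). Sema4f went from 21.3, 23 and 20.5 FPKM in young sham to 29.5, 26.9 and 27.2 FPKM in aged injury, a 1.29-fold difference (limma adjusted p = 0.0107), with 23.6 to 26.2 FPKM in aged sham, and with equal medians it was not called. These 3 ligands had their lowest mean in young sham and their highest in aged injury, an order favoured by picking genes called in this comparison alone.

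Efnb2 ran the other way, at 12.6, 10.9 and 12.6 FPKM in young sham and 8.98, 8.27 and 8.64 FPKM in aged injury, 1.39-fold lower (limma adjusted p = 0.0058). Its aged sham libraries, at 9.9 to 10.7 FPKM, lay between the 2 groups without overlapping either. Robo1, a Slit receptor, was at 3.2, 2.6 and 2.84 FPKM in young sham and 1.87, 2.14 and 1.78 FPKM in aged injury, 1.47-fold lower (limma adjusted p = 0.0322). Efna3 was 1.64-fold lower (limma adjusted p = 0.0315). Robo2, the other receptor of Slit1, was not called (log2 change 0.08), and the difference between the Robos was not tested. Plxnc1 and Sema4a were also called higher and Ntng1 lower, though Plxnc1 was not called with equal medians or with quantile normalization, nor Sema4a with quantile normalization. With the Y-linked level as a covariate, which nearly coincides with these 2 groups, none of the 15 was called. The log2 change was then 3.09 for Sema6a and -0.77 for Sema7a (limma adjusted p = 0.0697 for each), both larger than without the covariate, and 0.20 for Plxnb2, which was smaller. In the fits that left out young sham replicate 1 or 3, or aged injury replicate 1 or 3, 8 or 9 were called, and Slit1 was in none of the 4. Efna3 was also lost without aged injury replicate 2 and Robo1 without aged sham replicate 2.

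Beyond the ligands and receptors, 87 other genes of these pathways were tested in 5 lists. With age, 3 rose and 1 fell. They were Gpc1, a heparan sulfate proteoglycan that binds Slits, which rose from 37.98 ± 3.07 to 50.9 ± 0.913 FPKM, Rtn4r, the Nogo receptor, from 3.81 ± 0.355 to 5.49 ± 0.262 FPKM, and Ngef, an exchange factor bound by EphA receptors, from 1.08 ± 0.0629 to 1.64 ± 0.193 FPKM (SD, n = 3 each). Dpysl3, a collapsin response mediator of semaphorin signals, fell from 121 ± 6.27 to 99.7 ± 2.17 FPKM. These 4 age calls stand beside 4.02% of all rows, and with equal medians 2 were higher and 2 lower. All 4 calls were lost with the 2 groups alone, with the replicate block, with the Y-linked covariate and without young sham replicate 1, young sham replicate 3, aged sham replicate 2 or aged sham replicate 3. Ngef was also lost with equal medians and with quantile normalization. After injury 5 rose and 4 fell, beside 4.11% of all rows, and with equal medians 3 rose and 3 fell. In aged injury against young sham 14 were called higher and 9 lower, beside 13.1% of all rows, and the split turned to 5 and 16 with equal medians and to 9 and 11 with quantile normalization.

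The injury calls fell in 4 of the 5 lists. Of 22 semaphorin and plexin effectors, Chl1, an adhesion molecule of the L1 family that takes part in Sema3A responses, went up, from 12.6 ± 0.714 to 17.3 ± 0.837 FPKM (SD, n = 3 each, adjusted p = 0.015). Limk1, the kinase that switches off cofilin, fell from 39.5 ± 1.86 to 31.8 ± 1.09 FPKM, and 20 did not pass. Of 20 ephrin and Eph effectors, the cytoskeletal kinase gene Rock2 rose from 13.3 ± 1.16 to 19.3 ± 0.32 FPKM (adjusted p = 0.00873), the tyrosine kinase gene Abl2 rose with a log2 change of 0.38, and the other 18 were not called. Of 17 partners and effectors of Slits and Robos, Flrt3 rose and 16 did not pass. This gene was also listed, with Atf3, among 8 genes chosen to check the injury response. Flrt3 encodes a membrane protein that binds Unc5B and Robo1, and it had 9.32, 5.67 and 5.25 FPKM in aged sham, next to 31.9, 25.4 and 28.8 FPKM in aged injury (limma adjusted p = 0.0043). All 16 netrin partners and effectors did not pass. Median log2 changes of these 4 lists were 0.04, 0.06, -0.01 and -0.00, next to -0.01 over all rows.

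The list of other growth inhibitory ligands and receptors had 3 genes lower after injury, 1 higher and 8 that did not pass. Over all rows 1.65% were called lower and 2.45% higher. The median log2 change of the list was -0.20, against -0.01 over all rows. Lingo1, a co-receptor of the Nogo receptor, went from 19.1, 18.5 and 19.4 FPKM in aged sham to 12.9, 11.4 and 12.8 FPKM in aged injury (log2 change -0.62, SE 0.0758, limma adjusted p = 0.00529). Rtn4rl1, a homologue of the Nogo receptor, was at 29.5, 32 and 31.1 FPKM and then 22.8, 22.1 and 20.8 FPKM (limma adjusted p = 0.00486). Omg, a myelin glycoprotein ligand of these receptors, fell from 11.2 ± 0.242 to 8.62 ± 0.363 FPKM. Rtn4, which encodes Nogo, rose from 176 ± 8.95 to 211 ± 6.41 FPKM. In Lingo1, Rtn4rl1, Rock2 and Flrt3 the call held in all 9 fits that left out 1 library. Rtn4 kept its call in 1 of those 9, Abl2, Limk1 and Omg in 2 and Chl1 in 5. Without aged sham replicate 1, 5 pathway genes were called after injury, and 4 without aged sham replicate 3, aged injury replicate 1 or aged injury replicate 3.

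**Figure D5:**
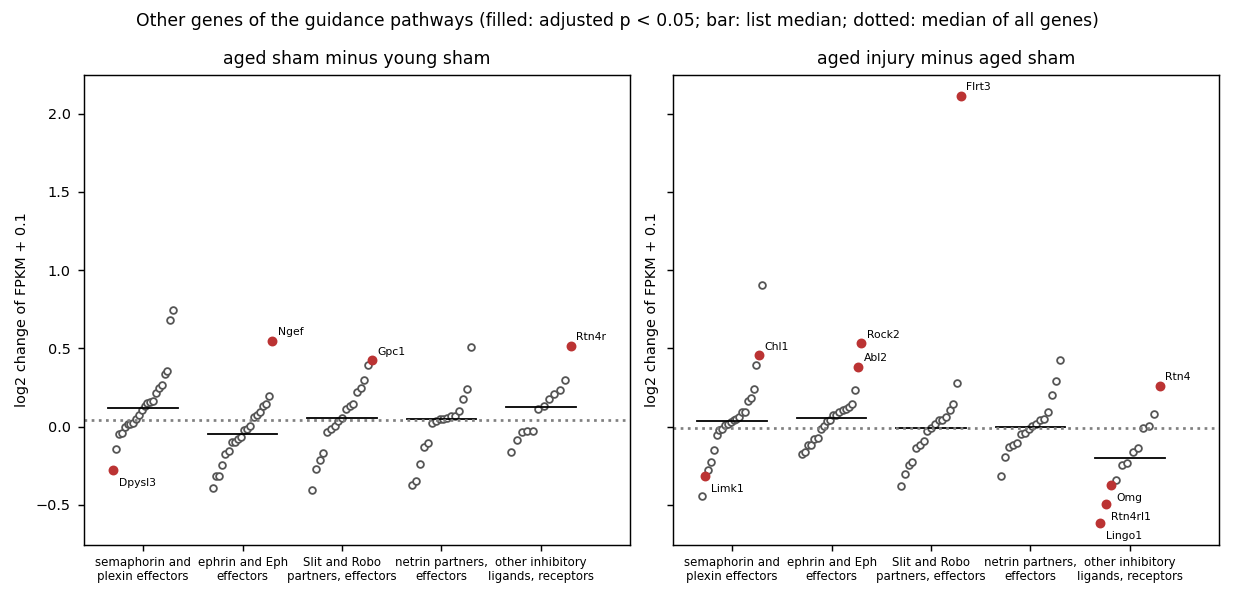
Log2 change of FPKM + 0.1 of 87 other guidance pathway genes in 5 lists, with age (left) and after injury (right). Each point is a gene, filled and named where it passed the test, the bar is the median of the list, and the dotted line is the median of all tested genes. Flrt3 stands at 2.11 after injury, and Lingo1, Rtn4rl1 and Omg are the named points below 0 in the last list.

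Markers of the cell types in the ganglion moved beside these genes, and their part in the results was not tested. Summed over 9 macrophage markers the level was 48.72 to 56.52 FPKM in young sham, 81.61 to 127.8 in aged sham and 86.79 to 119.8 in aged injury, and 4 of the 9 rose with age and 1 after injury. Of 10 markers of myelinating Schwann cells, 4 fell with age and 0 after injury, and their sum was 2820 to 3254, 1898 to 2027 and 1663 to 1937 FPKM. Of 10 lymphocyte markers, 1 was called with age and 0 after injury, with sums of 13.12 to 14.91, 76.72 to 602.7 and 270.4 to 2307 FPKM. Most of each aged sum was the single gene Igkc, at 68.5 to 528 FPKM in aged sham and 252 to 2150 FPKM in aged injury. Its highest level in both aged groups was in replicate 2. Of 14 markers of sensory neurons, 2 fell with age and 1 after injury, and their sums were 8317 to 8973, 8102 to 8916 and 7386 to 8226 FPKM. Of 8 satellite glia markers, 2 fell with age and 1 rose after injury, and the sum was 1441 to 1592 FPKM in aged sham and 1190 to 1336 in aged injury. Most of this sum was Apoe, at 1127 to 1136 FPKM in aged sham and 845 to 984 FPKM in aged injury. The median log2 change of the 8 after injury was 0.09, against -0.01 over all rows, so the list did not fall as a whole. Mural cell markers (8) had 1 fall with age and 1 rise after injury, and 11 markers of fibroblasts and nerve sheath had 0 and 1 calls. Of 8 markers of non-myelinating and repair Schwann cells, 5 passed the filter, and these 5 did not pass the test in either comparison. Their list summed to 282 to 339.2 FPKM in young sham, 340.8 to 382.6 in aged sham and 331 to 360.3 in aged injury, and the 3 below the filter were Olig1, Artn and Gdnf.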

How the data were processed

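RNA of pooled dorsal root ganglia was sequenced from both ends after a TruSeq mRNA preparation, per the labels' protocols. The authors deposited FPKM, and the submitters' processing notes list mm10, FastQC 0.10.1, HTSeq 0.6.0, TopHat2 2.0.12 and limma 3.22.7, among others, with no order of steps. The annotation release, strand setting and scaling factors were not given in the sources used here. All 9 columns were mapped by name, and 0 were left out.

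Symbols and positions came from GENCODE M21 (mm10), matched for 16841 of 17601 tested rows. limma 3.58.1 in R 4.3.3 was fitted on log2(FPKM + 0.1) with a variance trend over all 9 libraries, for rows with a mean of at least 0.2 FPKM. Tests were two-sided, and p-values measure the spread between pools. Depth is known only in relative terms, from steps that gave whole reads (within 0.001 of a read) in 99.9% of tested rows. The fit was run on simulated data with larger log2 changes than most reported here, so recovery of small changes was not tested. Members, lists and settings were chosen with earlier results of these data known. Named genes were those called (at most 12 per comparison), the 4 with the smallest p, the 2 most abundant of each family and up to 4 genes with the smallest p per list; others are named for their level or as relatives, chosen after their values were seen. Counts of pathway genes were recomputed after seeing the data.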

Additional observations from a re-analysis of the deposited data

How the results depend on the processing

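The called guidance genes (at most 12 per comparison) and Sema3c with age kept their direction under every setting, which was not recomputed for other genes. By family, with equal medians, log2 changes above 0 went from 7 to 4 of 13 Eph receptors with age and from 10 to 7 of 19 semaphorins in the third comparison. Guidance genes called with age were 3 as reported, 1 with no filter, 0 with the 2 groups alone, 0 with the Y-linked covariate, 6 with voom on recovered reads and 0 to 8 with 1 library left out. After injury they were 5, and 1 to 8 with 1 library left out. For aged injury against young sham they were 15, 0 with the Y-linked covariate and 8 to 17 with 1 library left out.

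All rows called with age were 707, 239 with no filter, 31 with the 2 groups alone, 5 with the Y-linked covariate and 23 to 1536 with 1 library left out. After injury they were 723, 302 with the 2 groups alone and 151 to 740 with 1 library left out. For aged injury against young sham they were 2304, 17 with the Y-linked covariate and 869 to 2365 with 1 library left out. The pathway genes, recomputed after seeing the data, numbered 4 with age, 2 with no filter, 0 with the 2 groups alone, 0 with the Y-linked covariate and 0 to 13 with 1 library left out. After injury they numbered 9, 5 with the Y-linked covariate and 4 to 8 with 1 library left out, and in the third comparison 23, 1 with the Y-linked covariate and 7 to 23 with 1 library left out.

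The median log2 change of the guidance genes with age was 0.147, 0.0645 with quantile normalization, 0.0824 with a pseudocount of 1, -0.0475 with the Y-linked covariate and 0.0648 to 0.147 with 1 library left out. In the third comparison it was 0.0243, -0.0525 with equal medians, -0.0259 with quantile normalization, 0.0679 with a filter at 1 FPKM, -0.1942 with the Y-linked covariate and -0.0075 to 0.0391 with 1 library left out.

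With the replicate block, guidance genes called were 0 with age and 4 after injury, all rows 101 and 273, and pathway genes 0, 4 and 13 in the 3 comparisons. Deviations of same-numbered aged sham and aged injury libraries correlated at 0.245, 0.27 and 0.062, and each of these libraries correlated best with its own number. The main fit did not take the numbers as pairs. The replicate block spanned all 3 groups, though same-numbered correlations with young sham were below 0. A block for the aged libraries alone was not fitted, so pairing of these libraries was not tested. The causes of these shifts were not tested. Genes below 0.2 FPKM were not tested, and absolute depth is not known.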
